A study of Mus musculus with 12 samples.

Results

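Among the probes of the array used for these mouse spleens, 1329 read cDNA clones that RIKEN had isolated from libraries of the brain and spinal cord. They were chosen by the library prefix of the RIKEN clone ID in the probe name, and they are 1329 of 97836 non-control probes and belong to the 15675 RIKEN clones on the array. The prefixes stand for medulla oblongata (98 clones), olfactory brain (163), diencephalon (197), hypothalamus (308), spinal cord (222) and corpora quadrigemina (341). These tissue names follow RIKEN's library naming and are not given in the files.

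The spleens came from female BALB/c mice aged 6 weeks that were injected intraperitoneally 3 times, on days 1, 3 and 5. OVA mice received ovalbumin, the egg white protein commonly used as a model allergen, at 2 mg/kg of body weight, and control mice received normal saline. There were 4 OVA and 2 control samples of spleen from day 28, and 4 OVA and 2 control samples from day 14, with 1 single-colour (Cy3) Agilent array for each sample. The labels name no adjuvant and no airway challenge, and they do not say whether the numbered samples of a group are separate mice, so the p-values below measure the spread between these samples.

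RIKEN's full-length cDNA projects cloned transcripts from many mouse tissues, and each clone keeps the code of the library in which it was found. The code tells where a transcript was picked up, not where it is confined: brain libraries hold ordinary mRNAs of most cell types beside neuronal, rare and non-coding RNAs. The spleen filters blood and houses B cells, T cells, macrophages and red cell precursors, and sympathetic nerve fibres reach it. In a whole spleen, fewer cells of a type and less RNA per cell cannot be told apart. The labelled tissue could not be checked, because 0 of 33 marker genes of spleen and neural cell types have a probe that the files name.

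Few of these clones have a gene name. The clone IDs of 67 matched a symbol or synonym in RefSeq, and 60 promoters of these genes were at hand there (build GRCm38.p6). The promoters of 3 of them are shown, 5′ to 3′ on the gene's own strand, the minus strand in each case, running from 250 bases before to 50 bases after the start, because their clones read very differently in spleen. Tmem39b, a transmembrane protein gene whose clone had the highest mean level of all, is at chr4:129696796-129697095, Scrn1 (secernin 1, a regulator of mast cell exocytosis), whose clone was higher in OVA spleens at day 28, is at chr6:54566333-54566632, and Srrm4, a neuronal splicing factor whose clone was not well above background on any array, is at chr5:116591768-116592067. Capitals mark the GC box GGGCGG on either strand.
Tmem39b: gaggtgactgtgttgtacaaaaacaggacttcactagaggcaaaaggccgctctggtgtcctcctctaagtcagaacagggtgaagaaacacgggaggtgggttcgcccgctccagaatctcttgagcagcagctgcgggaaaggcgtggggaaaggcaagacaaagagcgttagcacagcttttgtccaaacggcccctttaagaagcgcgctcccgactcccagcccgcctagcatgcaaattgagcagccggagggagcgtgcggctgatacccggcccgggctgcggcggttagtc
Scrn1: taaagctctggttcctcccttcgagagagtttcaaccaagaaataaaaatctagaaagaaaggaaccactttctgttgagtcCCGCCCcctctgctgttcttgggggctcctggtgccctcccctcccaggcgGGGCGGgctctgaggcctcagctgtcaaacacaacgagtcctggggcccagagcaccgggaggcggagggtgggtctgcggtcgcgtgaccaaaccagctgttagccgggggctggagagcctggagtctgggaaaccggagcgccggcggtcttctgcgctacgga
Srrm4: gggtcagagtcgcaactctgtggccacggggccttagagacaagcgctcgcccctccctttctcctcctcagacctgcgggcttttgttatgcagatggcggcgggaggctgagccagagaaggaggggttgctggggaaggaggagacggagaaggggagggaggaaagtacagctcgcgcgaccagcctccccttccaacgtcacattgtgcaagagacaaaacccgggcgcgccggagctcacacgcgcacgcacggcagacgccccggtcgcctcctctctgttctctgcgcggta
The Scrn1 window holds 2 GC boxes and the Tmem39b and Srrm4 windows hold 0, and none of the 3 holds TATAAA on either strand. GGGCGG is present in 45% of the 60 promoters of clone genes and in 35.7% of all 32851 promoters of the same length, and TATAAA in 8.33% and 13.6%. These are descriptions of letters in a window.

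All values below are levels, the log2 of the processed Cy3 signal minus the 75th percentile of that array, so that 0 is the signal that 75 of 100 probes do not exceed. Levels of different clones are not comparable, since each probe has its own response. A clone is called detected where the scanner software marked its spot as well above background, and it entered the tests where it was detected on every array of at least 1 group. The 3 slides of the experiment held all 4 control arrays, the 4 OVA arrays of day 14 and the 4 OVA arrays of day 28, so in every OVA against control difference, slide and treatment cannot be told apart. The control spleens of both days shared a slide. The 75th percentile signal was 484 to 549 on the OVA arrays of day 28, 316 and 326 on the control arrays of day 28, 267 to 288 on the OVA arrays of day 14, and 368 and 320 on the control arrays of day 14. No spot was saturated. Replicate 2 of the OVA day 14 group had the lowest share of spots above background (57.5%, against at most 80.0% on any array), and replicate 1 of the control day 14 group carried a bright streak over 3555 spots with a median excess of 2.44 log2 units, which covers 31 of the clones (2.33%), 19 of them tested.

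Most of the clones from brain libraries were detected in spleen, but a smaller share of them than of the other RIKEN clones. The share detected on an array was 47.3% at the lowest, 70.5% at the median and 76.3% at the highest, against 56.4%, 76.6% and 80.2% for the other 14346 RIKEN clones. Testis-library clones had 35.1%, 59.0% and 65.5%, and clones from thymus, a lymphoid organ like the spleen, had 70.3%, 87.6% and 88.9%. On all 12 arrays the brain-library share lay below those of the other RIKEN clones and of the thymus clones and above that of the testis clones. The median level followed the same order on all 12 arrays, at -2.96 (lowest -3.14, highest -2.86) for the brain-library clones, -2.31 for the other RIKEN clones, -3.67 for the testis clones and -1.30 for the thymus clones at the median array. For all non-control probes the median level at the median array was -2.28. These are descriptions, since the clones of a library are not replicates, and since each set has probes of its own a median signal is no comparison of expression.

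**Figure D1:**
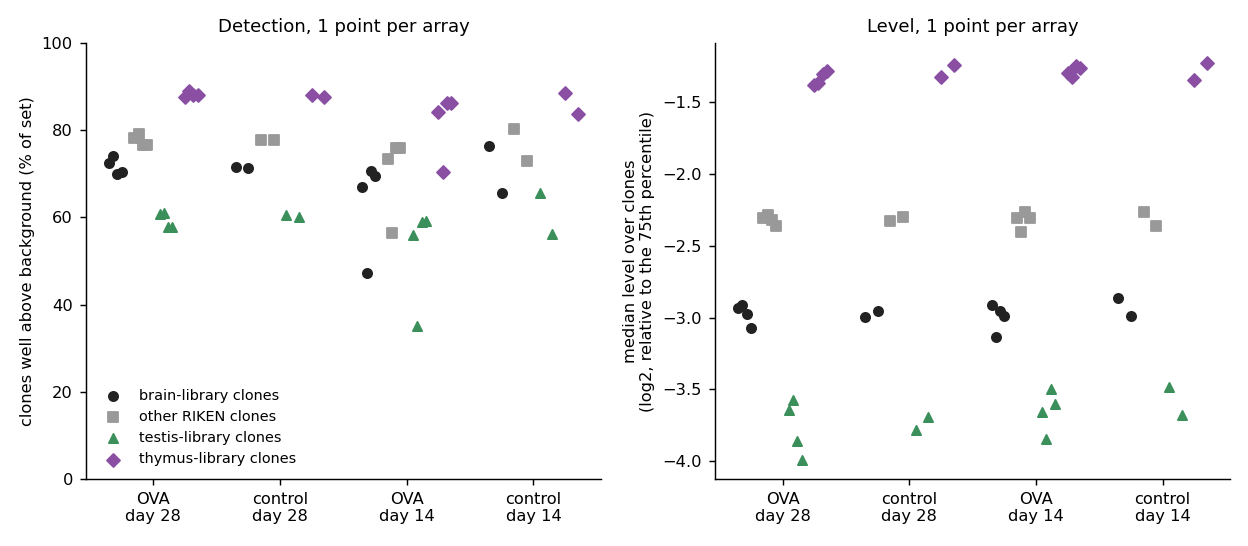
Share of clones detected (left, percent) and median level over clones (right, log2 relative to the array's 75th percentile), 1 point per array, for brain-library, other RIKEN, testis-library and thymus-library clones in the 4 groups. On every array the black point, the brain-library clones, lies between that array's testis and thymus points, and the lowest black point on the left, 47.3%, is replicate 2 of the OVA day 14 group.

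The share and the level of the whole set differed little between the groups. At day 28 the share detected was 71.7 ± 1.91% in OVA spleens and 71.4 ± 0.251% in control spleens (SD, n = 4 and n = 2), and at day 14 it was 63.6 ± 10.9% in OVA spleens and 70.9 ± 7.60% in control spleens. Without replicate 2 the OVA arrays of day 14 had 66.9%, 70.6% and 69.5%, and the control array of that day without the streak had 65.5%. The median level at day 28 was -2.97 ± 0.07 in OVA spleens and -2.97 ± 0.03 in control spleens, and at day 14 it was -3.00 ± 0.10 in OVA spleens and -2.92 ± 0.09 in control spleens, differences no larger than the spread within the groups.

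Of the 1329 clones, 623 (46.9%) were detected on all 12 arrays, 183 on 11 arrays and 231 (17.4%) on none. Of all 97095 features, 53761 were detected on all 12 arrays. The tests took in 945 clones (71.1%, against 74.7% of all probes), and 384 were not tested, among them the 231 detected on no array. The mean level over the arrays ran from -6.73 to 6.44 with a median of -2.99, and 176 clones (13.3%) had a mean above the 75th percentile, against 23.8% of all probes. Among the tested clones the pooled SD within groups had a median of 0.206 log2 units, against 0.173 for all tested features, and pairs of arrays correlated at r = 0.914 to 0.986 over the clones. The length of the cloned cDNA, given in the probe names as 280 to 6718 bases with a median of 2149, was nearly unrelated to the mean level (Spearman rho -0.0645 across clones, which are not independent).

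The shares and median levels of the 6 libraries were not alike, which is a description of their probes. No test compared the libraries, and the 12 arrays read the same probes each time. Medulla oblongata clones were detected most (80.6% at the median array, median level -2.22) and diencephalon clones least (60.9%, -3.70), and these stood highest and lowest of the 6 on all 12 arrays for both measures. Corpora quadrigemina (74.2%, -2.76), spinal cord (70.5%, -3.05), hypothalamus (70.3%, -2.93) and olfactory brain (68.6%, -3.09) lay between them. On all 12 arrays 58 of 98 medulla oblongata clones were detected, against 71 of 197 diencephalon clones.

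The 3 clones of highest mean level in each library were detected on every array. In the medulla oblongata library they were 6330509E05 (mean 6.44 ± 0.17, SD over 12 arrays), which is Tmem39b, 6330552M03 (3.95 ± 0.18) and 6330593P21 (3.93 ± 0.21). In the hypothalamus library they were A230062A07 (6.20 ± 0.17), A230024L23 (5.68 ± 0.12) and A230074A18 (5.52 ± 0.28). Olfactory brain had 6430509P20 (5.31 ± 0.37), 6430408J18 (3.85 ± 0.12) and 6430512L12 (3.66 ± 0.24). These levels show only that the probes were bright in spleen. Corpora quadrigemina had B230211D20 (4.86 ± 0.13), B230375M18 (4.74 ± 0.26) and B230361J18 (4.47 ± 0.11), spinal cord A330021M13 (4.35 ± 0.16), A330102C06 (3.14 ± 0.15) and A330040O19 (2.79 ± 0.24), and diencephalon 9330189F18 (2.23 ± 0.21), 9330188G12 (2.07 ± 0.28) and 9330157E08 (1.69 ± 0.18). All 18 of these probes read above the 75th percentile of their array on average.

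At day 28, 66 of the 945 tested clones were higher and 44 were lower in OVA spleens than in control spleens (limma, adjusted p under 0.05 over all 72515 tested features). Together they are 11.6% of the tested clones, against 14.1% of all features. The higher calls are 6.98% (7.44% of all features) and the lower ones 4.66% (6.61% of all features). The higher clones had a median difference of 0.74 log2 units as fitted and the lower clones one of -0.56, against -0.06 for all tested clones and -0.03 for all features. For 6 of the higher and 1 of the lower clones the dimmer group was not well above background on any array. With these at their bound the medians were 0.73 and -0.55, and the other called clones ran from 0.38 to 1.64 and from -1.21 to -0.35. A factor of 2 or more was reached by 11 higher and 3 lower clones measured in both groups, and by 2 higher clones as a bound. The higher clones lay at a median level of -1.78 with 43 of 66 detected on all 12 arrays (65.2%, against 78.9% of all features called higher). The lower clones lay at -0.93 with 36 of 44 (81.8%, against 90.6% of all features called lower). Without adjustment 250 clones (26.5%, against 30.2% of all features) had p under 0.05. OVA and control values did not overlap for 358 clones (37.9%, against 42.2% of all features), 158 of them higher (16.7%, against 19.1%) and 200 lower (21.2%, against 23.1%). Without control replicate 1 of day 28, 26 clones passed (2.69%, against 4.22% of all features), without control replicate 2 it was 23 (2.36%, against 2.55%), without OVA replicate 2 it was 65 (6.86%, against 7.95%), without OVA replicate 3 it was 69 (7.25%, against 8.36%), and with the position on the slide as a block it was 52 (5.5%, against 5.74%). With another background correction, normexp on the raw median signals, 373 passed (59 higher, 314 lower, 39.5% against 38.1% of all features).

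**Figure D2:**
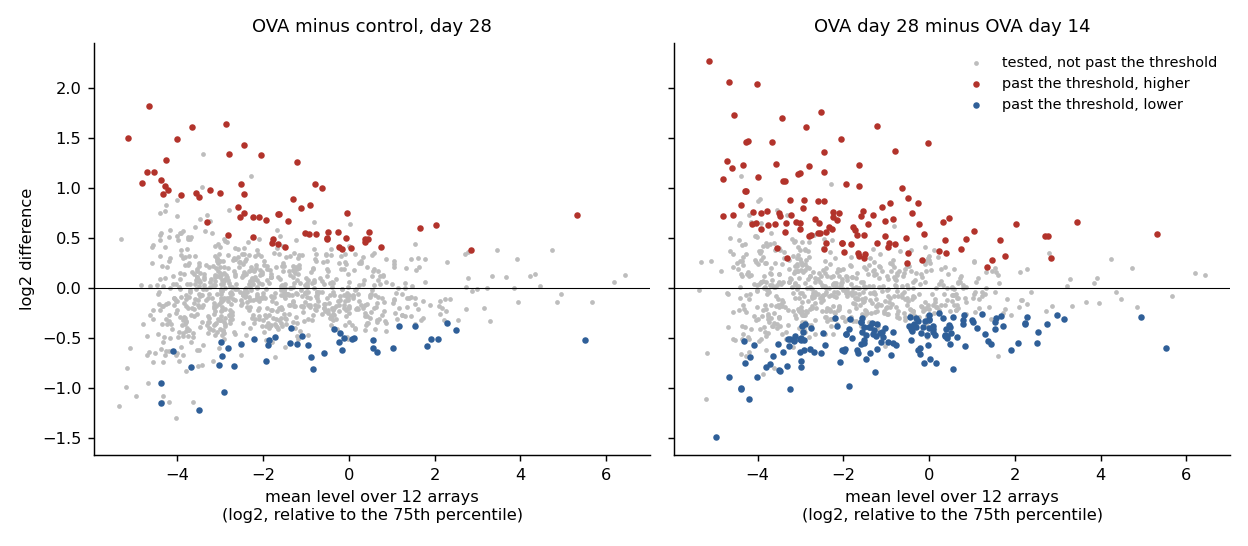
Log2 difference (vertical axis) against mean level (log2 relative to the 75th percentile, horizontal axis) of the 945 tested clones, for OVA against control at day 28 (left) and OVA day 28 against OVA day 14 (right), with the called clones in colour. The left panel has 66 clones called higher and 44 lower, the right panel 126 and 157, and the called clones of largest difference sit at levels below 0.

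The calls at day 28 came from all 6 libraries. Corpora quadrigemina gave 19 higher and 14 lower clones (12.9% of its tested clones), hypothalamus 15 and 10 (11.4%), spinal cord 12 and 5 (10.8%), diencephalon 9 and 6 (12.4%), medulla oblongata 6 and 5 (13.8%) and olfactory brain 5 and 4 (8.04%). These shares stand below the 14.1% of all features in each library.

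The 6 called clones with the highest differences and no overlap at day 28 have no gene name in RefSeq. Absence of overlap was part of this choice, so it is no further support for them. Diencephalon clone 9330127N12 had levels of -1.78, -1.84, -1.58 and -1.69 in OVA spleens of day 28, against -3.55 and -3.17 in control spleens. It was 3.12-fold higher (log2 difference 1.64 ± 0.19 SE, limma adjusted p = 0.00089), the groups lie far apart, and the call held in all 24 alternatives that gave it a value. Corpora quadrigemina clone B230316O16 had -2.57, -2.60, -2.90 and -3.18 in OVA spleens, against -4.23 and -4.61 in control spleens, a 3.05-fold difference (1.61 ± 0.17, adjusted p = 0.000719). Its groups do not overlap, and its control spot was detected on 1 of 2 arrays. With normexp the difference of B230316O16 was 0.26 with an adjusted p of 0.0646.

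Diencephalon clone 9330196M09 had -1.64, -1.39, -1.76 and -1.32 in OVA spleens of day 28, against -2.76 and -3.15 in control spleens, and was 2.69-fold higher (1.43 ± 0.22, adjusted p = 0.00327). Without control replicate 2 of that day its adjusted p was 0.0507. Hypothalamus clone A230005A20 had -2.62, -3.05, -2.78 and -2.55 in OVA spleens, against -4.30 and -4.17 in control spleens, and was 2.81-fold higher (1.49 ± 0.27, adjusted p = 0.00745). All OVA values of both clones lie above both control values, as the choice required.

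A further pair of these clones was detected on all 4 OVA arrays and on neither control array of day 28, so only a lower bound of the fold can be given. The bound sets the mean of the brighter group against the dim group's mean of, on each array, the lowest signal among the probes well above background or the clone's own where that is higher. Olfactory brain clone 6430542I17 had -3.12, -3.34, -3.13 and -3.33 in OVA spleens, against -4.57 and -5.51 in control spleens, and was at least 2.58-fold higher (measured means -3.23 and -5.04, adjusted p = 0.0186). Hypothalamus clone A230106B19 had -3.72, -4.09, -3.93 and -3.89 in OVA spleens, against -5.36 and -5.45 in control spleens, and was at least 1.72-fold higher (measured means -3.91 and -5.40, adjusted p = 0.0157). Neither call held with normexp, where the differences were 0.11 and 0.02, nor without control replicate 2 of day 28.

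A230106B19 and A230051L22, both from the hypothalamus library, are the only clones detected on every array of the OVA day 28 group and on no other array. No count over all features stands beside these 2. A230051L22 had -4.14, -4.21, -4.29 and -3.89 in OVA spleens of day 28, against -5.45 and -4.91 in control spleens, at least 1.47-fold higher (measured means -4.13 and -5.18, adjusted p = 0.0426). That call ended in 14 of 24 alternatives and its sign turned in 1, normexp, at -0.10. A230106B19, A230051L22 and 6430542I17 entered the tests only through the OVA day 28 group, in which they are high, so they had to differ, and their p-values at day 28, between the OVA days and in the interaction are no support for a difference. In all, 10 of the 66 clones called higher at day 28 entered the tests in this way.

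The 6 called clones with the lowest differences and no overlap at day 28 moved by less. For them too, absence of overlap was part of the choice. Spinal cord clone A330069P16 had -3.71, -4.07, -3.75 and -3.78 in OVA spleens, against -2.25 and -2.98 in control spleens, and was 2.32-fold lower (-1.21 ± 0.27, adjusted p = 0.0164). Olfactory brain clone 6430532D13 had -3.13, -3.16, -3.39 and -3.73, against -2.16 and -2.47 in control spleens, 2.05-fold lower (-1.04 ± 0.21, adjusted p = 0.0107). All their OVA values lie below both control values, but without control replicate 1 the difference of A330069P16 was -0.85 (adjusted p = 0.159). Diencephalon clone 9330172H06 had -5.00, -4.50, -5.72 and -5.29 in OVA spleens, detected on 1 of 4, against -3.83 and -4.13 in control spleens (fitted difference -1.15 ± 0.29, adjusted p = 0.0248). Hypothalamus clone A230058F20 had -1.28, -1.13, -1.39 and -1.20, against -0.28 and -0.60 in control spleens, 1.75-fold lower (-0.81 ± 0.16, adjusted p = 0.01). Again the groups do not overlap.

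Hypothalamus clone A230078D10 was detected on no OVA array of day 28 and on both control arrays, with -4.72, -4.90, -5.53 and -5.26 in OVA spleens, against -4.04 and -4.27 in control spleens. It was at least 1.44-fold lower (measured means -5.10 and -4.16, adjusted p = 0.026). Corpora quadrigemina clone B230346H09 had -3.55, -4.04, -4.23 and -4.45 in OVA spleens, against -3.41 and -3.15 in control spleens, 1.72-fold lower (-0.79 ± 0.22, adjusted p = 0.0393). Its nearest OVA and control values are close, and its call was lost in 13 of 24 alternatives.

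**Figure D3:**
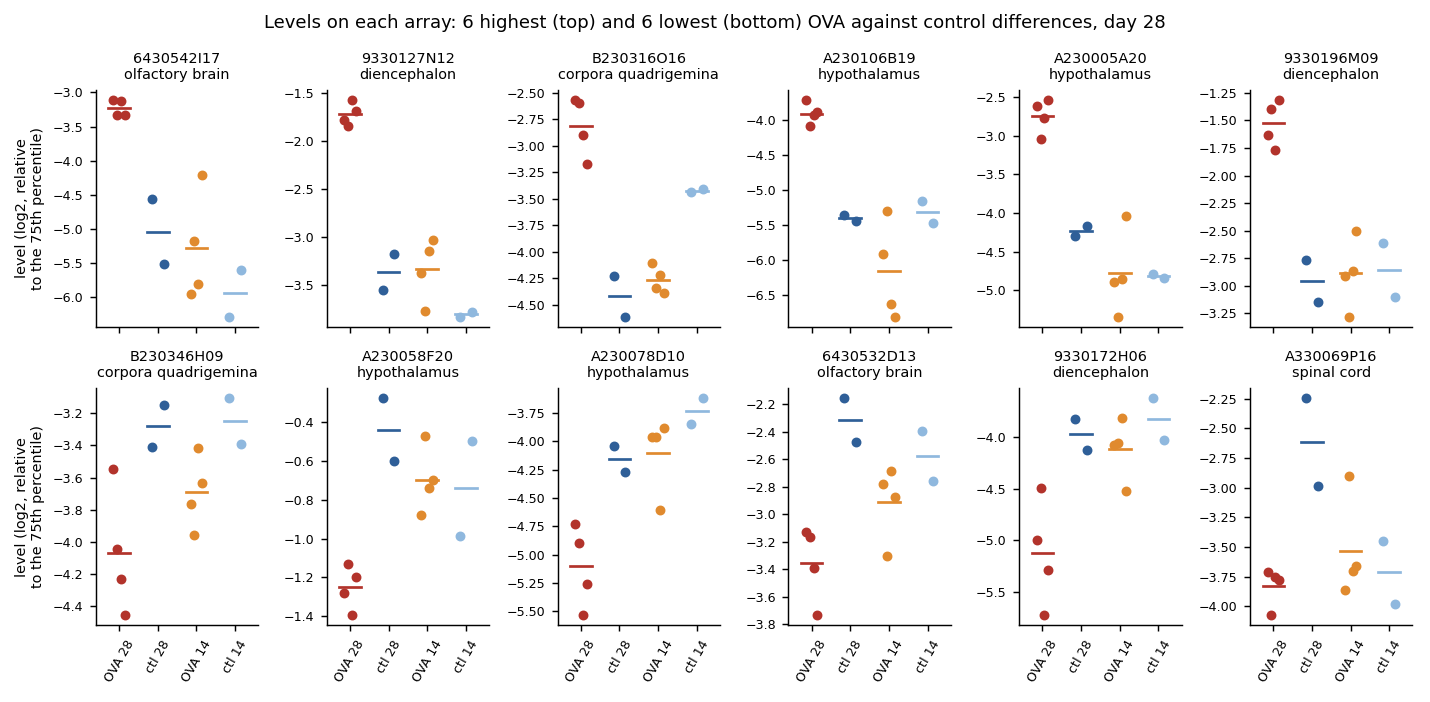
Levels on each array (log2 relative to the 75th percentile, vertical axes with a scale of their own) of the 6 clones highest (top row) and the 6 lowest (bottom row) in OVA against control spleens at day 28, with a bar at each group mean. In the top row the 4 OVA points of day 28 lie above all other points of the panel.

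Among the clones of highest level, 3 also passed at day 28. Olfactory brain clone 6430509P20 had 5.98, 5.81, 5.72 and 5.48 in OVA spleens of day 28, against 4.92 and 5.12 in control spleens, 1.65-fold higher (0.73 ± 0.14, adjusted p = 0.0101). A230074A18 had 5.37, 5.17, 5.14 and 4.99 in OVA spleens, against 5.64 and 5.74 in control spleens, 1.44-fold lower (-0.52 ± 0.11, adjusted p = 0.0119), and 9330188G12 had 1.53, 1.77, 1.73 and 1.88, against 2.21 and 2.27 in control spleens, 1.43-fold lower (-0.51 ± 0.13, adjusted p = 0.0281). Their groups do not overlap, and all 3 calls were lost in some alternatives that left out 1 array.

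Between the OVA spleens of day 28 and of day 14 more clones passed, but this comparison has 4 arrays against 4. OVA against control at day 28 has 4 against 2 and is less precise, so the counts do not compare the sizes of the differences. Of the 945 clones 126 were higher and 157 lower at day 28 (limma, adjusted p under 0.05), 29.9% together, against 34.1% of all features. The higher calls are 13.3% (15% of all features) and the lower ones 16.6% (19.1% of all features), and 392 clones (41.5%, against 44.8%) had an unadjusted p under 0.05. The days did not overlap for 284 clones (30.1%, against 36.7% of all features), 125 of them higher (13.2%, against 15.7%) and 159 lower (16.8%, against 21%). The higher clones had a median difference of 0.66 log2 units as fitted and the lower ones one of -0.48. For 11 of the higher and 3 of the lower clones the dimmer group was not well above background on any array. With these at their bound the medians were 0.64 and -0.47, and 22 higher and 3 lower clones with a detected spot in both groups differed by a factor of 2 or more. Of the higher clones 11 entered the tests only through the OVA day 28 group. The groups lay on different slides, so slide and day cannot be told apart here. With normexp 642 clones passed (85 higher, 557 lower, 67.9% against 65.6% of all features), and with scaling to the spike-in probes 231 (166 higher, 65 lower, 24.4% against 26.9%). Olfactory brain had the highest share of calls (33%, 16 higher and 21 lower) and medulla oblongata the lowest (25%, 10 and 10).

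A clone from corpora quadrigemina, B230368E04, had -1.45, -1.46, -1.41 and -1.78 in OVA spleens of day 28, against -3.30, -2.84, -3.49 and -3.48 in OVA spleens of day 14. It was 3.38-fold higher (1.76 ± 0.17, limma adjusted p = 6.52e-05), with a wide gap between the days. 6430542I17, whose day 28 values are given above, had -5.95, -5.18, -5.81 and -4.21 in OVA spleens of day 14, and A230005A20 had -4.89, -5.34, -4.85 and -4.04, each detected on 1 of 4 arrays there. The fitted difference between the days was 2.06 ± 0.34 for 6430542I17 (adjusted p = 0.00125) and 2.03 ± 0.22 for A230005A20 (adjusted p = 0.000125). With 3 of the 4 day 14 spots not well above background, these are no measured folds. A230106B19 was detected on no OVA array of day 14 (-5.92, -5.30, -6.64 and -6.82) and was at least 1.10-fold higher at day 28 (adjusted p = 0.000202; measured means -3.91 and -6.17).

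In the other direction, spinal cord clone A330073J15 had -2.49, -2.38, -2.31 and -2.23 in OVA spleens of day 28, against -1.51, -1.52, -1.11 and -1.38 in OVA spleens of day 14, 1.97-fold lower (-0.98 ± 0.10, adjusted p = 0.000107). Spinal cord clone A330009E13 had -4.34, -3.52, -3.42 and -3.85, against -2.25, -3.39, -2.66 and -2.79 at day 14, 2.01-fold lower (-1.01 ± 0.25, adjusted p = 0.011). The days do not overlap for either clone, as the choice required, although A330009E13 comes close on 1 array of each day. A230078D10 had -3.96, -3.96, -4.61 and -3.88 at day 14 and was at least 1.49-fold lower at day 28 (adjusted p = 0.00302; measured means -5.10 and -4.10). B230201M14, a corpora quadrigemina clone detected on no OVA array of day 28 (-5.06, -5.29, -5.22 and -5.36) and on 2 of 4 of day 14 (-4.92, -4.71, -3.71 and -4.05), was at least 1.26-fold lower (adjusted p = 0.0286; measured means -5.23 and -4.35). A330009E13, A330073J15 and A230078D10 kept their calls in every alternative.

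At day 14, no clone differed between OVA and control spleens past the threshold in the limma fit (0 of 945, against 0.0676% of all features, 0.0621% higher and 0.00552% lower). Without adjustment 149 clones (15.8%, against 14.7% of all features) had p under 0.05. OVA and control values did not overlap for 217 clones (23%, against 23.1% of all features), 142 of them higher (15%, against 16.2%) and 75 lower in OVA spleens (7.94%, against 6.89%). The count depended on control replicate 2 of that day: without it, which leaves the control array with the streak, 38 of 1027 clones passed (3.7%, against 3.02% of all features). Of the 17 tested clones with a difference under -1, 9 lie in the streak.

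The clones with the most extreme test statistics at day 14 came near the threshold. Hypothalamus clone A230011B19 had -1.03, -1.25, -1.13 and -1.19 in OVA spleens of day 14, against -1.85 and -1.72 in control spleens (0.63 ± 0.11, limma adjusted p = 0.0619). Olfactory brain clone 6430502M14 had 0.70, 0.55, 0.70 and 0.74, against 0.12 and -0.15 in control spleens (0.68 ± 0.13, adjusted p = 0.0773). Neither overlaps its controls, and A230011B19 passed in 4 of 25 alternatives, 6430502M14 in 2 of 25. On the low side, diencephalon clone 9330159F01 had -4.57, -4.65, -4.21 and -4.66 in OVA spleens, detected on 1 of 4, against -3.79 and -3.69 in control spleens (-0.79 ± 0.16, adjusted p = 0.0951), and B230316O16 had -4.11, -4.34, -4.22 and -4.39, against -3.44 and -3.41 in control spleens (-0.84 ± 0.17, adjusted p = 0.0973). With normexp both differences were near 0, at 0.0388 and 0.00764.

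Hypothalamus clone A230016A05 was dim in both groups at day 14, with -4.84, -5.28, -4.81 and -5.53 in OVA spleens and -6.53 and -6.30 in control spleens, so it has no fold there (adjusted p = 0.0775). Hypothalamus clone A230073I18 was detected on both control arrays (-4.27 and -3.83) and on no OVA array (-6.18, -5.20, -5.59 and -5.52) of day 14 (adjusted p = 0.105), and on no array of day 28. It is the only clone detected on all arrays of the control day 14 group and on no other array, with no count over all features beside it.

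The control spleens of day 28 and day 14, which shared a slide, gave no called clone (0 of 945 by limma, against 0.00138% of all features). With 2 arrays against 2, this comparison is less precise than those above. Without adjustment 69 clones (7.3%, against 10.3% of all features) had p under 0.05, and the values did not overlap for 356 (37.7%, against 37% of all features), 229 of them higher at day 28 (24.2%, against 23%) and 127 lower (13.4%, against 14%). Without control replicate 2 of day 14, which leaves the array with the streak, 40 of 1027 clones passed (3.89%, against 2.48% of all features).

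Whether the OVA against control difference itself changed with day was tested as an interaction, the day 28 difference minus the day 14 difference. It passed for 29 of 945 clones (3.07%, against 2.95% of all features), 18 with a higher difference at day 28 (1.9%, against 1.59%) and 11 with a lower one (1.16%, against 1.36%). Without adjustment 197 clones (20.8%, against 22.3%) had p under 0.05. The higher ones had a median fitted interaction of 1.37 log2 units and the lower ones one of -0.74. A group with no detected spot was present in 5 of the 29, and 4 of the 29 were detected on every array of only 1 group. The hypothalamus library gave 12 of the 29, 6 in each direction (5.45% of its tested clones, against 2.95% of all features). The count ran from 4 to 73 (73 being 7.11%, against 7.71% of all features) when 1 array at a time was left out, and was 0 with the position on the slide as a block. It was 330 with normexp (29 higher, 301 lower, 34.9% against 30.4% of all features) and 49 with spike-in scaling (48 higher, 1 lower, 5.19% against 4.06%).

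Among the 29 called clones, the one with the highest interaction was B230316O16 (2.45 ± 0.25, limma adjusted p = 0.00305), whose OVA values were above the control values at day 28 and below them at day 14. A230106B19 had an interaction of 2.35 ± 0.47 (adjusted p = 0.0299), but it was detected in only 1 of the 4 groups, so this fitted value is no measured fold. A230073I18, also dim in 3 groups, had 2.07 ± 0.48 (adjusted p = 0.0464) and entered the tests only through its high control day 14 values, so neither p is support for a change with day. At day 28 A230073I18 had -5.41, -5.08, -5.16 and -5.80 in OVA spleens and -6.48 and -5.23 in control spleens. With normexp the interaction of B230316O16 was 0.26, and those of A230106B19 and A230073I18 changed sign, to -0.00625 and -0.20. The clones 9330196M09 (1.46 ± 0.31, adjusted p = 0.0353), B230368E04 (1.38 ± 0.30, adjusted p = 0.0364) and 9330127N12 (1.16 ± 0.26, adjusted p = 0.0418), which were higher at day 28, passed as well. The call of B230316O16 was lost in 2 of 23 alternatives, those of 9330196M09 in 12 of 23, B230368E04 in 14 of 24 and 9330127N12 in 15 of 23.

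Among the called clones the lowest interactions belonged to A230016A05 (-1.89 ± 0.34, adjusted p = 0.0236), A330029L16 (-0.93 ± 0.21, adjusted p = 0.0414) and A230089M23 (-0.85 ± 0.19, adjusted p = 0.0402). A230016A05 had -4.76, -4.51, -5.30 and -4.82 in OVA spleens and -4.05 and -4.45 in control spleens of day 28. Its OVA values were the lower ones at day 28 and the higher ones at day 14, where it was not detected. A230016A05 entered the tests only through its high control day 28 values, so its p is no support for a change with day. Spinal cord clone A330029L16 had 0.49, 0.50, 0.69 and 0.67 in OVA spleens of day 28, against 1.23 and 0.61 in control spleens, and 1.18, 1.20, 1.20 and 1.10 in OVA spleens of day 14, against 0.63 and 0.50 in control spleens. At day 14 its groups lie apart, and at day 28 they overlap. Hypothalamus clone A230089M23 had -0.15, 0.12, -0.09 and -0.02 in OVA spleens of day 28, against 0.39 and 0.52 in control spleens, and -0.04, 0.14, 0.34 and 0.42 in OVA spleens of day 14, against -0.13 and -0.15 in control spleens. Its groups lie apart on both days, with OVA lower at day 28 and higher at day 14. The interaction call was lost in 8 of 23 alternatives for A230016A05, 18 of 24 for A330029L16 and 17 of 24 for A230089M23.

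**Figure D4:**
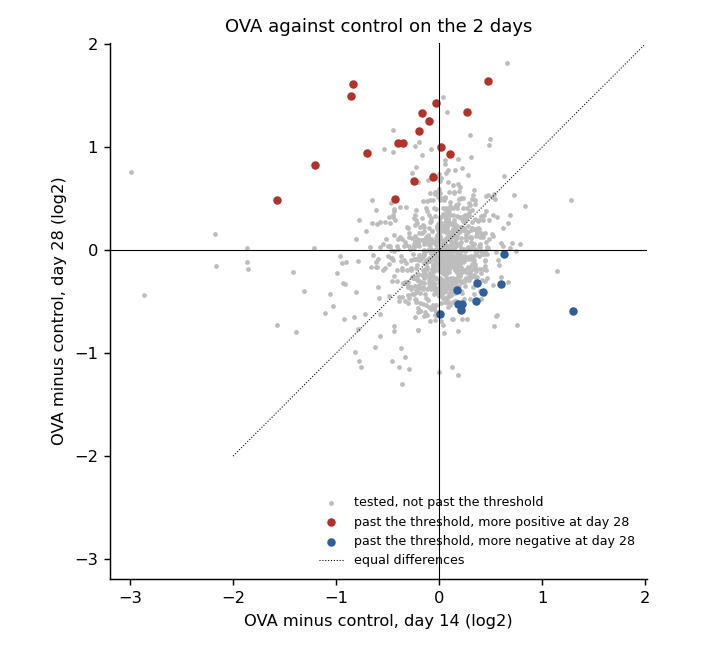
OVA minus control difference at day 28 against that at day 14 (both in log2 units) for the 945 tested clones, with the 29 clones past the interaction test in colour. The differences of day 28 and of day 14 share no arrays. The called clones lie away from the diagonal, B230316O16 furthest with an interaction of 2.45.

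The 67 clones with a gene name fall into 40 protein-coding genes, 26 long non-coding RNAs and 1 V segment. Of these 47 were tested, 33 were detected on all 12 arrays and 12 on none. Detection on all arrays held for 24 of 40 protein-coding clones and for 9 of 26 non-coding ones. In the day 28 comparison 4 were higher and 1 was lower in OVA spleens (10.6% of the 47, against 14.1% of all features). In the day 14 comparison 0 passed in the limma fit (9 at an unadjusted p under 0.05, and 0.0676% of all features called). Between the OVA spleens of day 28 and day 14, 5 were higher and 5 lower (21.3%, against 34.1%), and the interaction passed for 1 (2.13%, against 2.95%). The genes described next are those past a threshold and the 6 of highest mean level, and those past a threshold were chosen after their values were seen.

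Scrn1, whose promoter is shown above, had -0.99, -1.09, -0.98 and -0.96 in OVA spleens of day 28, against -1.72 and -1.77 in control spleens, 1.67-fold higher (0.74 ± 0.15, limma adjusted p = 0.0121). OVA spleens of day 14 had -1.93, -2.41, -2.02 and -1.75, against which those of day 28 were 2.03-fold higher (1.02 ± 0.12, adjusted p = 0.000226). The day 28 values lie above all others. That second call held in all 25 alternatives, whereas the first was lost without either control array of day 28 (adjusted p = 0.0658 and 0.0887). Atg12, which encodes a ubiquitin-like protein that is joined to its partner in autophagosome formation, had -1.77, -1.61, -1.83 and -1.84 in OVA spleens of day 28, against -2.24 and -2.71 in control spleens, 1.63-fold higher (0.71 ± 0.16, adjusted p = 0.0169). It was also 1.63-fold higher than in OVA spleens of day 14 (-2.20, -2.36, -2.68 and -2.63, adjusted p = 0.00226). Without control replicate 2 of day 28 its OVA against control difference was 0.47 (adjusted p = 0.165).

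A230072I06Rik, annotated as protein coding with no role given in RefSeq, had -1.65, -1.69, -1.40 and -1.75 in OVA spleens of day 28, against -2.42 and -2.25 in control spleens, 1.64-fold higher (0.71 ± 0.11, limma adjusted p = 0.00407), a call that held in all 25 alternatives. At day 14 it had -2.46, -2.31, -2.40 and -2.32 in OVA spleens, against -2.30 and -2.33 in control spleens, and its interaction was 0.77 ± 0.16 (adjusted p = 0.0345, lost in 13 of 24). The groups lie apart at day 28 and close together at day 14. The non-coding B230369F24Rik had -2.95, -3.29, -3.54 and -3.90 in OVA spleens of day 28, against -4.40 and -4.29 in control spleens, 1.90-fold higher (0.92 ± 0.27, adjusted p = 0.0409), a call lost in 10 of 24 alternatives. Klhl42, a substrate adaptor of a cullin ubiquitin ligase, had -1.99, -1.88, -1.89 and -1.93, against -1.35 and -1.52 in control spleens, 1.40-fold lower (-0.49 ± 0.15, adjusted p = 0.0467), a call lost in 13 of 25. These groups do not overlap either.

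Between the OVA spleens of day 28 and day 14, Ociad1 was higher (0.73 ± 0.22 log2 units, limma adjusted p = 0.0265). Its sign turned with normexp, at -0.0811. Med15, a subunit of the Mediator complex (-0.50 ± 0.14, adjusted p = 0.0208), Naa35, a subunit of an N-terminal acetyltransferase (-0.52 ± 0.14, adjusted p = 0.0132), and Lyrm7, an assembly factor of mitochondrial complex III (-0.46 ± 0.13, adjusted p = 0.0161), were lower. The non-coding 6430553K19Rik (-0.52 ± 0.12, adjusted p = 0.0072) and A230028O05Rik (-0.58 ± 0.16, adjusted p = 0.0193) were lower too.

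The named genes of highest level passed no test. Tmem39b had 6.81, 6.45, 6.58 and 6.44 in OVA spleens of day 28, against 6.39 and 6.50 in control spleens (0.13 ± 0.12, limma adjusted p = 0.499), which overlap. The ubiquitin ligase Trim23 had 3.43, 2.99, 3.39 and 3.13, against 3.28 and 3.19 in control spleens (adjusted p = 0.993), and Ctso, the lysosomal protease cathepsin O, had 1.65, 1.78, 1.77 and 1.65, against 1.67 and 1.64 in control spleens (adjusted p = 0.816). Mean levels over the arrays were 2.12 for the non-coding 6430590A07Rik, 1.40 for Dennd5b, a regulator of Rab proteins, and 0.87 for Tmcc3. Tmcc3 came nearest, with 0.55, 0.83, 0.82 and 0.93 in OVA spleens of day 28, against 1.24 and 1.19 in control spleens (-0.43 ± 0.14, adjusted p = 0.067).

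Of the 67 clones with a gene name, the 12 detected on no array were 7 long non-coding RNAs and 5 protein-coding genes. The genes named in this paragraph were picked after their values were seen. The 5 protein-coding genes were Srrm4, the axonemal genes Dnah1 and Cfap44, Rilpl1, and Il1rap, a co-receptor for interleukin 1 and interleukin 33. The protein-coding Disp2 and Ttc26 were well above background on 1 of 12 arrays. Ptprd, a receptor phosphatase of neuronal synapses, was detected on all 12 arrays (mean level 0.03; day 28 adjusted p = 0.113). The T cell receptor alpha segment Trav13-5, although cloned from corpora quadrigemina, was detected on 11 of 12 arrays at a mean level of -2.98. A clone reads only the stretch its probe covers, so a dim probe gives a bound for that transcript and not for the gene.

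For 4 of the genes the array also has a RefSeq probe, and these did not always read alike. Celrr, a long non-coding RNA, differed between OVA and control spleens of day 28 by -0.09 at the clone probe (limma adjusted p = 0.82) and by -0.47 at the RefSeq probe (adjusted p = 0.0167). 9330188P03Rik was detected on 1 of 12 arrays with the clone probe and on all 12 with the RefSeq probe, which was lower in OVA spleens of day 28 (-0.65, adjusted p = 0.046). Both probes of A230001M10Rik and of B230206H07Rik were detected on 0 arrays.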

How the data were processed

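Total RNA of each spleen was labelled with Cy3 and hybridised to 1 Agilent array, per the labels' protocols. The deposited scanner files give a background-corrected processed signal intensity for each spot, made by Agilent Feature Extraction (version 11.5.1.1 per the file headers, 9.1 per the submitters' processing notes). From these, log2 processed signal minus the 75th percentile of each array was computed, leaving out control spots and flagged spots. Each clone has 1 spot, so no spread between spots could be computed.

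Probes that passed the scanner's background mark throughout 1 group or more were tested in limma 3.58.1 (R 4.3.3), with the 4 groups as terms over all 12 arrays (8 residual degrees of freedom) and Benjamini-Hochberg adjustment over 72515 features at 0.05. The fit was also run on simulated data with the spread of the real features, in which 200 of 72515 were changed. It called 61% of 2-fold and 92% of 4-fold changes in the day 14 comparison. In the day 28 comparison it called 68% and 90%. A 2-fold change can therefore be missed. The number of arrays limits the precision.

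Clones were named by rule: called clones of largest difference without overlap at day 28 (6 each way) and between the OVA spleens of both days (4 each way), called clones of largest interaction (3 each way), the most extreme statistics at day 14 (3 each way), the 3 clones of highest mean level in each library, the 6 named genes of highest level, and the clones detected in the OVA day 28 group alone. This rule names 47 clones, and 11 genes past a threshold were added after their values were seen. The clones and lists were chosen with earlier results of these data known. Alternatives were other scalings, background correction by normexp (offset 50, on the median signal and median background, since the files used here hold no mean signal), other filters, variance models and blocks, and leaving out each array.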

Additional observations from a re-analysis of the deposited data

Results flagged for a closer look

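A single array stood far from the other 3 of its group in 7 of 120 groups of 4 checked, and chance alone flags about 1 group in 20. The share of clones detected was 47.3% on OVA day 14 replicate 2. In OVA spleens of day 28, 6430408J18 stood apart at 3.85 and B230211D20 at 4.96, both on replicate 1, and B230368E04 at -1.78 on replicate 4. In OVA spleens of day 14, A230078D10 stood apart at -4.61 on replicate 3, A330040O19 at 2.82 on replicate 2, and A330105D01, which is Ctso, at 1.76 on replicate 3.

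The interaction test, the OVA against control difference of day 28 minus that of day 14, passed for 29 clones (limma, adjusted p under 0.05, 3.07% against 2.95% of all features). Among the named clones the interaction was 2.45 for B230316O16, 2.35 for A230106B19, 2.07 for A230073I18, 1.46 for 9330196M09, 1.38 for B230368E04, 1.16 for 9330127N12 and 0.77 for A230072I06, the clone of A230072I06Rik. It was -1.89 for A230016A05, -0.93 for A330029L16, -0.85 for A230089M23, -0.83 for A330073J15, -0.74 for A230074A18 and -0.67 for A230011B19. A230106B19, A230073I18 and A230016A05 each entered the tests only through 1 group, in which they are high, so their p-values are no support for a change with day. All day 28 and day 14 OVA arrays lay on separate slides, so slide cannot be told apart from day within the OVA group.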

How the results depend on the processing

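Counts of called clones are given as higher/lower where a setting moved their balance. At day 28 (110 clones, 66/44) the count was 373 (59/314) with normexp, 63 without a filter on dim probes, 52 with the position on the slide as a block (added after seeing the data), and 23 to 125 when 1 array at a time was left out. Of the 66 higher and 44 lower clones, 42 and 44 were still called with normexp, and 17 and 4 without control day 28 replicate 2. At day 14 (0 clones) it was 1 with quantile scaling, 10 with spike-in scaling, 1 with normexp, 2 with detection required on all 12 arrays, 2 with a trended robust variance and 0 to 38 leaving out 1 array. Between the OVA spleens of both days (283, 126/157) it was 642 (85/557) with normexp, 231 (166/65) with spike-in scaling and 223 to 303 leaving out 1 array. Between the control spleens (0) it was 0 to 40 leaving out 1 array. For the interaction (29, 18/11) it was 49 (48/1) with spike-in scaling, 330 (29/301) with normexp, 26 (24/2) with the percentile taken over detected probes, 3 without a filter, 46 (18/28) with detection on all 12 arrays, 49 with a trended robust variance, 3 with array weights, 0 with the position block and 4 to 73 leaving out 1 array. The cause was not tested in any of these. Set beside all features, the share called at day 28 without a filter was 4.76%, against 6.12%. At day 14 it was 0.106% against 0.201% with quantile scaling and 1.06% against 0.637% with spike-in scaling. It was 0.106% against 0.359% with normexp, 0.321% against 0.497% with detection on all 12 arrays, and 0.212% against 0.32% with the trended variance. Between the OVA days the percentile over detected probes gave 273 clones (147/126, 28.9% against 32.3%). In the interaction the share was 2.75% against 3.03% with the percentile over detected probes and 0.227% against 0.339% without a filter. It was 0.317% against 0.683% with array weights, 7.38% against 7.35% with detection on all 12 arrays and 5.19% against 5.9% with the trended variance. Spike-in scaling moved the median difference of all features to -0.21 at day 14 and to 0.16 in the interaction, and normexp to -0.15 at day 28, -0.23 between the OVA days and -0.21 in the interaction.

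Replicate numbers were not treated as pairs. The deviations of same-numbered arrays correlated at -0.18 to 0.32. This cannot settle whether samples were paired, because the 2 control arrays of a group deviate by equal and opposite amounts. With the replicate block 77 clones were called at day 28 (8.15%, against 9.17% of all features) and 280 between the OVA days (29.6%, against 32%). The count was 0 at day 14 (against 0% of all features), 0 between the controls (against 0.00138%) and 7 in the interaction (0.741%, against 0.539%).

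The level was -4.29 with the percentile over detected probes, -1.97 with normexp and -2.98 to -2.96 leaving out 1 array, and the share 68.1% to 70.8%. The sign turned with normexp for 9330159F01 (day 14 0.0388, OVA days -0.34), A230051L22 (day 28 -0.10, OVA days -0.37), A230073I18 (interaction -0.20), A230106B19 (OVA days -0.0449, interaction -0.00625), B230209J16, which is Ociad1 (OVA days -0.0811), B230316O16 (day 14 0.00764) and B230369F24 (OVA days -0.17). Of 562 values of 23 day 28 results of single clones, 460 kept direction and call and 101 lost the call. For the OVA days this was 766 and 40 of 811, for the interaction 136 and 168 of 306, and at day 14 135 of 146 stayed below the threshold with their direction and 9 passed. Dim clones carry only bounds, and requiring 1 spot above background is the same rule here, each clone having 1 spot.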

Other observations

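Hypothalamus clone A230025G05 was detected on both control arrays of day 28 and on no other array. Its mean level was -5.57 in OVA spleens and -4.39 in control spleens of day 28, and -5.55 in OVA spleens and -5.54 in control spleens of day 14. It was chosen after its values were seen. The 4 clones detected on all arrays of 1 group and on no other array (2 for OVA day 28, 1 for control day 28, 1 for control day 14) all came from the hypothalamus library. That library holds 308 of the 1329 clones. No count over all features stands beside these 4 dim clones, and each control group has only 2 arrays. No trait of the library is drawn from them.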
